A study of Mus musculus with 16 samples.

Results

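The regulators of G protein signalling are 9 genes, Rgs2, Rgs3, Rgs4, Rgs6, Rgs7, Rgs10, Rgs12, Rgs14 and Rgs19, taken by gene symbol from the 35682 genes of the deposited count table. All 9 were in the table, and 5 (Rgs2, Rgs3, Rgs4, Rgs6 and Rgs12) had enough counts to be tested. RNA was read from ventricular myocytes of 8 wild-type (WT) mice and 8 B3AR-Tg mice, a transgenic line labelled after the beta-3 adrenergic receptor, each 9 weeks after transverse aortic constriction (TAC), the banding of the aorta that loads the left ventricle with pressure. No animal without the surgery was in the series, so the comparison is between genotypes under load. Libraries held 5985335 to 14365864 counts. The promoter and species of the transgene, the strain background, the age and the sex of the mice were not given in the sources used here.

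When a receptor activates a heterotrimeric G protein, the alpha subunit binds GTP and stays active until it hydrolyses it. RGS proteins bind the active alpha subunit through their RGS domain and speed up that hydrolysis, so they shorten signals from receptors coupled to Gq and Gi. In the heart Rgs2 is known as a brake on Gq signalling and Rgs6 as a brake on the slowing of the heart by acetylcholine. The subfamilies are named R4 (Rgs2, Rgs3 and Rgs4 here), R7 (Rgs6 and Rgs7), R12 (Rgs10, Rgs12 and Rgs14) and RZ (Rgs19).

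Rgs2 and Rgs3 are the members whose RNA passed the test between genotypes, so the sequence before their start sites is shown. The call of Rgs3 was close to the threshold (edgeR adjusted p = 0.0477). The sequences are RefSeq windows on GRCm38.p6, 250 bases before the start site, read 5′ to 3′ on the strand of the gene. Of the 9 genes, 8 had such a window, and Rgs3 has a pair of them. Capitals mark any match on either strand to 1 of 3 motifs. The core of the cAMP response element was searched as TGACG. The GC box, a site of Sp-family factors, was searched as GGGCGG. The TATA box, which places the start of transcription in some promoters, was searched as TATAAA. The full cAMP response element TGACGTCA, which contains the core, was also searched and was in none of the 3 windows.
Rgs2, chr1:144004150-144004399, minus strand: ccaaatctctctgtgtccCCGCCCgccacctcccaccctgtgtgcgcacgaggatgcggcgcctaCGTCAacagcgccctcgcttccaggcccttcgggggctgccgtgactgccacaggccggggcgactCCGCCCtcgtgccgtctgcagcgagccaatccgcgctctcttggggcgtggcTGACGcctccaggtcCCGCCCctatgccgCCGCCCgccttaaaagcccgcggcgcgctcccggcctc
Rgs3, first window, chr4:62559597-62559846, plus strand: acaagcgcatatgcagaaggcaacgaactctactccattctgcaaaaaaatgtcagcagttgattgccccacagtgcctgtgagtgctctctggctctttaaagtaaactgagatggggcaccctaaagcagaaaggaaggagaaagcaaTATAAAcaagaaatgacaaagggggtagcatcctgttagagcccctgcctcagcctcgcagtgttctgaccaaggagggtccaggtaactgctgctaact
Rgs3, second window, chr4:62619422-62619671, plus strand: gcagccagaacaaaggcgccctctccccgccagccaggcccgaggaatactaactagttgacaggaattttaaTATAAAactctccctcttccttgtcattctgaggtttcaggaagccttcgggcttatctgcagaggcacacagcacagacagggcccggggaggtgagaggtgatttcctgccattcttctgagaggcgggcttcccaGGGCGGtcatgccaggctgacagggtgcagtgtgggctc
The Rgs2 window held 2 cores, starting 185 and 67 bases before the start site, and 4 GC boxes, and its GC content was 72.4%. Neither Rgs3 window held the core. The core was also in the Rgs4 window, at 236 and 141 bases before the start, and once in 1 of the Rgs12 windows, and neither gene passed the test. The first Rgs3 window had a match to TATAAA 100 bases before the start. The second Rgs3 window had a match to TATAAA 177 bases and a GC box 39 bases before its start. In the Rgs4 window TATAAA lay 31 bases before the start. Whether any of these matches places a start of transcription was not tested. Among all 32851 RefSeq windows of this length, 17.8% held the core, 1.55% the full element, 32.7% the GC box and 12.4% the TATA box. These are matches of letters, and no binding was measured.

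Levels are given in CPM, counts scaled to the size of the library after TMM normalization. The p-values between genotypes weigh the difference against the spread between these animals. Rgs2 was the member that differed most clearly between genotypes, at nearly double the WT level in B3AR-Tg myocytes. Rgs3 was lower in B3AR-Tg, by a smaller step that sat at the threshold. Rgs4 had a lower mean and Rgs6 a higher mean in B3AR-Tg, and Rgs12 was close in both, and none of these passed the test. Rgs7, Rgs10, Rgs14 and Rgs19 had too few counts to compare. Thus 2 of the 5 tested members passed an adjusted p of 0.05 (edgeR quasi-likelihood test), 1 higher and 1 lower, where 4.91% of the 10945 tested genes passed, 2.03% higher and 2.88% lower. The median log2 fold change of the 5 was −0.18, beside 0.01 over all tested genes. Groups that did not overlap were seen in 0 of the 5 members and in 0.448% of all tested genes, 0.201% with B3AR-Tg above and 0.247% with it below.

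**Figure D1:**
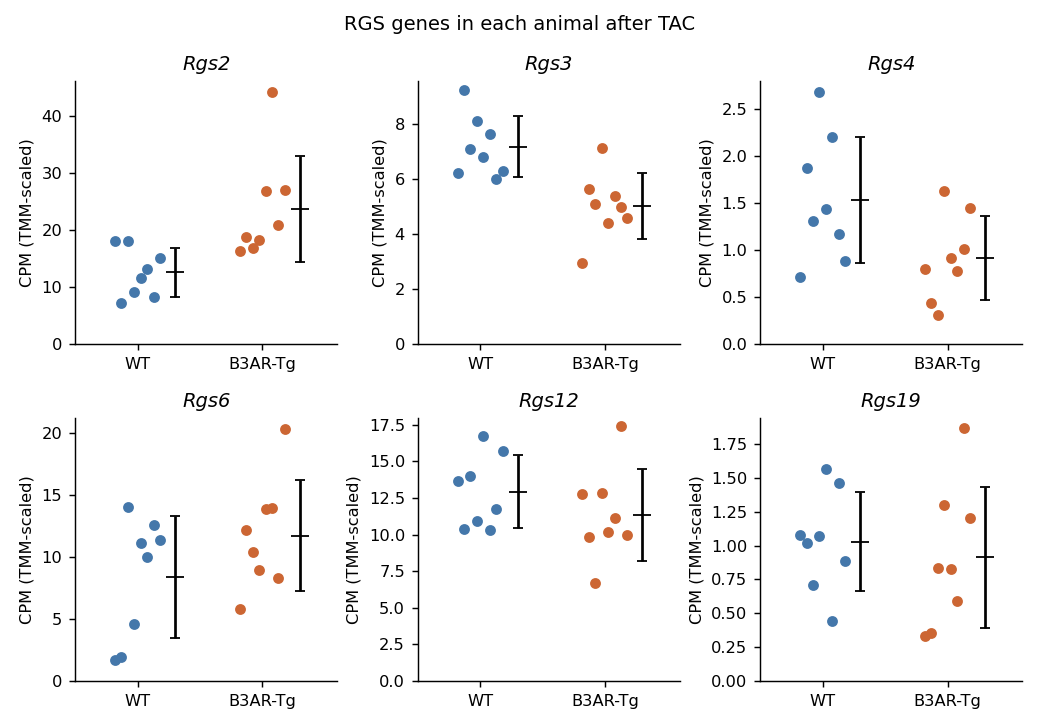
Level of 6 RGS genes in each of 8 WT (blue) and 8 B3AR-Tg (orange) animals, in TMM-scaled CPM on a linear axis from 0. Points are animals and black bars are the mean ± SD. Rgs2 in B3AR-Tg lies between 16.4 and 44.2 CPM against 7.22 to 18.1 CPM in WT, and 3 WT animals form a low set for Rgs6.

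In the R4 subfamily, Rgs2 (ENSMUSG00000026360) acts preferentially on Gq alpha. Its level in WT animals was lowest at 7.22 CPM (replicate 2), with a median of 12.3 and a highest value of 18.1 (replicate 3). In B3AR-Tg it was lowest at 16.4 CPM (replicate 1), with a median of 19.9 and a highest value of 44.2 (replicate 6). All 8 B3AR-Tg animals were above the WT median and 6 were above every WT animal, and the groups overlapped only through WT replicates 1 and 3. The mean was 12.6 ± 4.26 CPM (SD, n = 8) in WT and 23.7 ± 9.29 CPM in B3AR-Tg, 1.88-fold higher. On the log2 scale this was 0.92 ± 0.22 (standard error), with a 95% interval from 0.46 to 1.37 (edgeR adjusted p = 0.0211). The counts behind it ran from 57 to 153 per library in WT and from 112 to 452 in B3AR-Tg. B3AR-Tg replicate 6 stood well above the rest of its group, whose next value was 27.1 CPM, and without it the log2 fold change was 0.73 (edgeR adjusted p = 0.0360).

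Rgs3 (ENSMUSG00000059810), an R4 protein that acts on Gi and Gq alpha subunits and is made in long and short forms, went the other way. WT animals had a lowest level of 6.00 CPM (replicate 7), a median of 6.96 and a highest level of 9.26 (replicate 2). B3AR-Tg animals had a lowest level of 2.95 CPM (replicate 1), a median of 5.05 and a highest level of 7.15 (replicate 4). Of the 8 B3AR-Tg animals, 7 were below every WT animal, and the groups overlapped through B3AR-Tg replicate 4 alone. The mean fell from 7.18 ± 1.11 to 5.03 ± 1.19 CPM (n = 8 each), or −0.54 ± 0.15 (standard error) on the log2 scale, with a 95% interval from −0.86 to −0.22 (edgeR adjusted p = 0.0477). That call was close to the threshold. With each library left out in turn the adjusted p ran from 0.0246 to 0.103, and it stayed under 0.05 only without WT replicate 7 or B3AR-Tg replicate 4. Scaling by library totals (adjusted p = 0.101) and no filter on low counts (adjusted p = 0.0868) also ended the call, while the log2 fold change stayed between −0.61 and −0.44.

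Rgs4, an R4 protein that acts on Gi and Gq, was scarce. Its lowest WT level was 0.719 CPM, its median 1.37 and its highest 2.68 (replicate 4). In B3AR-Tg the lowest level was 0.313 CPM (replicate 3), the median 0.861 and the highest 1.62 (replicate 4). Libraries held 6 to 30 counts in WT and 3 to 18 in B3AR-Tg, and 6 of 8 B3AR-Tg animals were below the WT median. The log2 fold change was −0.77 with a wide 95% interval, from −1.46 to −0.08, and it did not pass over all genes (edgeR unadjusted p = 0.0295, edgeR adjusted p = 0.199). Before adjustment 19.3% of all tested genes had a p under 0.05.

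Rgs6 belongs to the R7 subfamily, whose proteins are stable only when bound to the G beta subunit Gnb5. Its WT animals were split. WT replicates 1, 2 and 4 had 1.68, 1.95 and 4.55 CPM, and the other 5 reached 14.0 CPM (replicate 3), the lowest of them being replicate 6. In B3AR-Tg the lowest level was 5.82 CPM (replicate 1), the median 11.3 and the highest 20.3 (replicate 8). Those 3 WT animals were below every B3AR-Tg animal, whereas 1 B3AR-Tg animal was above every WT animal, and 4 of the 8 were above the WT median of 10.6 CPM. The means were 8.41 ± 4.92 and 11.7 ± 4.46 CPM, which is 0.50 on the log2 scale with a 95% interval from −0.22 to 1.23 (edgeR adjusted p = 0.455). The data therefore allow anything from a small decrease to a more than 2-fold increase. The 14 to 51 counts of these 3 WT libraries are well above the 3 counts taken as the floor of detection.

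Rgs12, the large multi-domain member of the R12 subfamily, had about as many WT counts as Rgs2. WT animals ran from 10.3 CPM (replicate 6) through a median of 12.7 to 16.7 (replicate 5), and B3AR-Tg animals from 6.68 (replicate 3) through a median of 10.7 to 17.4 (replicate 7). Of the B3AR-Tg animals 4 were below every WT animal and 1 was above every WT animal, and the log2 fold change was −0.18 with a 95% interval from −0.51 to 0.15 (edgeR adjusted p = 0.558).

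Rgs19, of the RZ subfamily and also known as GAIP, lay just under the low-count filter. WT replicates 1 to 8 held 9, 12, 6, 12, 12, 3, 10 and 9 counts, and B3AR-Tg replicates 1 to 8 held 5, 4, 8, 8, 9, 6, 24 and 15. The 73 WT counts and 79 B3AR-Tg counts gave 1.03 ± 0.369 and 0.914 ± 0.523 CPM. With no low-count filter the fitted difference was −0.17 ± 0.38 on the log2 scale (standard error, edgeR adjusted p = 0.855). A difference was not detectable at this depth.

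Rgs7, the other R7 member, held 1, 9, 6, 2, 1, 0, 4 and 8 counts in WT replicates 1 to 8 and 5, 1, 2, 5, 10, 1, 6 and 6 in B3AR-Tg, so it was above 3 counts in 4 WT and 5 B3AR-Tg libraries. Rgs10, a small protein that is little more than an RGS domain, held 13 counts over all WT libraries and 11 over all B3AR-Tg libraries, with 0 counts in 3 libraries of each genotype. Rgs14, which carries a second site that binds inactive Gi alpha, held 1 count over all WT libraries and 6 over all B3AR-Tg libraries, 4 of them in replicate 7. These 3 genes were at or near the floor in both genotypes, which lay between 0.201 and 0.487 CPM across libraries and covers counting error only, and no difference was detectable.

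**Figure D2:**
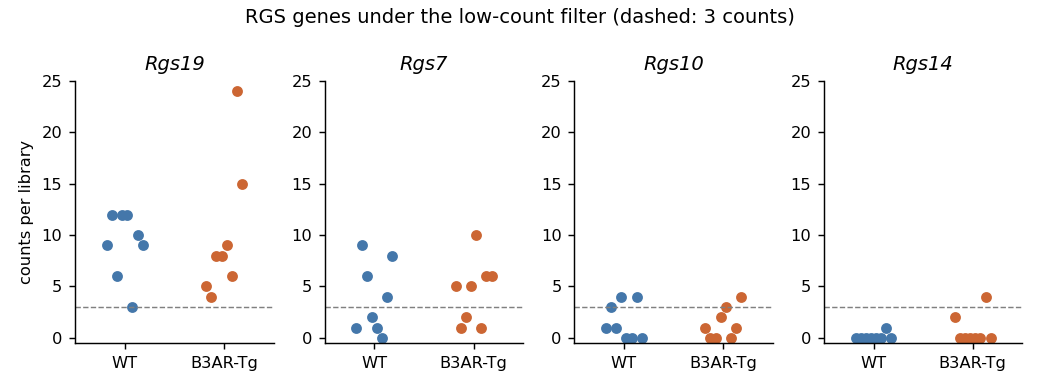
Counts per library of the 4 RGS genes under the low-count filter, for 8 WT (blue) and 8 B3AR-Tg (orange) libraries, with a dashed line at 3 counts. Rgs19 is above the line in 15 of 16 libraries, Rgs7 in 9 and Rgs10 in 3, and Rgs14 in 1.

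Per kilobase of exon (union of exons, GENCODE M21), Rgs2 had the highest level of the 9 in both genotypes, 3.47 ± 1.17 CPM per kilobase in WT and 6.52 ± 2.56 in B3AR-Tg. Rgs12 followed in WT at 1.52 ± 0.292, then Rgs6 at 0.839 ± 0.491, Rgs3 at 0.665 ± 0.103, Rgs4 at 0.495 ± 0.217 and Rgs19 at 0.462 ± 0.165 CPM per kilobase. In WT the steps from Rgs2 to Rgs12, from Rgs12 to Rgs6 and from Rgs19 to the near-absent Rgs10 were larger than the larger SD of the pair, and those from Rgs6 through Rgs3 and Rgs4 to Rgs19 were not. With the longest transcript as the length, Rgs2 stayed highest in both genotypes, while Rgs3 came before Rgs6 and Rgs19 before Rgs4 in WT, and Rgs6 before Rgs12 in B3AR-Tg. The exons of the 9 genes overlapped those of no other gene in the table.

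The spread between animals was set beside the spread that counting alone would give. In WT the coefficient of variation of Rgs6 was 58.5%, where counting alone would give 11.8%. For Rgs2 it was 33.9% in WT, where counting alone would give 9.64%, and 39.3% in B3AR-Tg. For Rgs3 in WT it was 15.5%, against 12.8% from counting alone, and in B3AR-Tg 23.7%, against 13.8%. Rgs4 varied by 43.8% in WT, where counting alone would give 27.6%.

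Within a genotype the tested members showed no relation that held after adjustment. Over 20 relations (10 pairs in each genotype, 8 animals each, exact permutation tests, two-sided), 0 passed and 1 had an unadjusted p under 0.05 for Pearson's r. Rgs3 and Rgs4 in WT had r = 0.79 (exact p = 0.0212, adjusted 0.409) and Spearman's rho = 0.83 (exact p = 0.0154, adjusted 0.218), and r = 0.82 without the 2 animals farthest from the median of Rgs3. Rgs2 and Rgs6 in B3AR-Tg had rho = 0.81 (exact p = 0.0218, adjusted 0.218) and r = 0.64 (exact p = 0.0890, adjusted 0.409), and r = 0.64 again without the 2 animals farthest from the median of Rgs2.

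Markers of cardiac load differed strongly between these groups, so the members were set beside them. The load score is the mean over Nppa, Nppb, Myh7, Acta1, Ankrd1 and Xirp2 of log2 CPM less each gene's mean over the 16 animals, and all 6 genes were lower in B3AR-Tg (edgeR adjusted p from 0.00362 to 0.0245), though 3 passed without B3AR-Tg replicate 5. The score ran from 0.03 to 1.88 in WT and from −1.66 to 0.28 in B3AR-Tg, and B3AR-Tg replicate 7 was the 1 transgenic animal within the WT range. Genotype and load score cannot be told apart across all 16 animals, and relations were computed within genotypes. Over 10 relations (5 members, 2 genotypes), 0 had an unadjusted p under 0.05. For Rgs6 the values were r = −0.54 in WT (exact p = 0.174, rho = −0.60, exact p = 0.132) and r = −0.55 in B3AR-Tg (exact p = 0.151, rho = −0.60, exact p = 0.132), and r moved to −0.20 and −0.23 without the 2 animals farthest from the median score. For Rgs2 r was −0.51 in WT (exact p = 0.187, rho = −0.57, exact p = 0.151) and −0.22 in B3AR-Tg (exact p = 0.575, rho = −0.36, exact p = 0.389), and without the 2 farthest animals 0.01 and −0.15. For Rgs3 in WT r was 0.39 (exact p = 0.331) and turned to −0.72 without WT replicates 2 and 4, so the value rests on those animals. Adjusted over the 10, every p was at least 0.492.

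**Figure D3:**
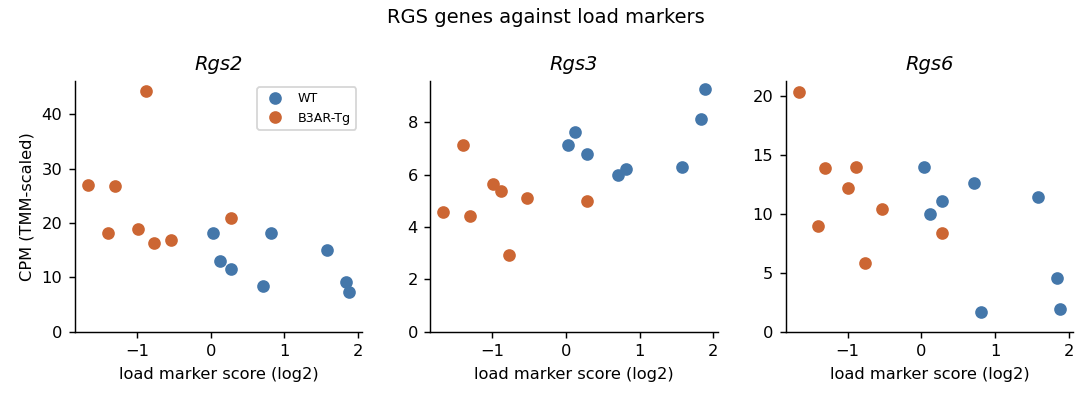
Level of Rgs2, Rgs3 and Rgs6 (CPM, TMM-scaled, linear axis from 0) against the load marker score (log2 scale) in each of 8 WT (blue) and 8 B3AR-Tg (orange) animals. The scores of the groups meet only at B3AR-Tg replicate 7, at 0.28, and no relation within a genotype had an unadjusted p under 0.05.

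Other genes of the pathway were taken from fixed lists. Of 18 other genes whose proteins carry an RGS domain, 7 were tested, and 0 passed the edgeR test or DESeq2 and 1 had an unadjusted p under 0.05. Rgs5, known as a gene of pericytes and smooth muscle, had the highest count of the genes named Rgs, with a WT mean of 44.9 ± 9.87 CPM and a B3AR-Tg mean of 35.7 ± 14.8 CPM (log2 difference −0.34, edgeR adjusted p = 0.427). Rgs16, an R4 gene, had 2.25 ± 0.388 and 3.28 ± 2.36 CPM (log2 fold change 0.52, adjusted p = 0.432), and B3AR-Tg replicate 5 alone reached 8.08 CPM. Without that animal the Rgs16 log2 fold change was 0.17 (edgeR adjusted p = 0.831). Snx13, a sorting nexin with an RGS domain, had the unadjusted p under 0.05, at 106 ± 9.95 and 93.3 ± 6.71 CPM (log2 fold change −0.18, adjusted p = 0.156). Axin1, Snx14, Snx25 and Akap10 had log2 fold changes between 0.05 and 0.18. Rgs8, Rgs13, Rgs20 and Rgs21 held no more than 3 counts in any library.

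Of 11 partners of RGS proteins and other regulators of G alpha, 5 were tested and 0 passed in edgeR or DESeq2, with 1 at an unadjusted p under 0.05. Gnb5 and Rgs7bp, 2 tested partners of the R7 subfamily, are named here after their values were seen. Gnb5 had a WT mean of 12.5 ± 1.41 CPM and a B3AR-Tg mean of 12.4 ± 2.32 CPM (edgeR adjusted p = 0.986, 95% interval of the log2 fold change from −0.25 to 0.24). Rgs7bp, the R7 binding protein that anchors these complexes at the membrane, was at 4.58 ± 2.16 and 7.69 ± 1.92 CPM (log2 fold change 0.76, adjusted p = 0.109), with all 8 B3AR-Tg animals above the WT median, and it passed in 1 of 25 alternatives (limma voom with sample weights, adjusted p = 0.0476). Of the 13 G alpha subunits on which RGS proteins or their relatives act, 9 were tested and 0 passed in edgeR or DESeq2, with 0 at an unadjusted p under 0.05.

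Among 17 receptors that use these G proteins, 10 were tested, 1 rose and 3 fell. Of all tested genes, 2.03% passed as higher and 2.88% as lower. Adra1b, an alpha-1 adrenergic receptor coupled to Gq, rose from 5.36 ± 1.22 to 10.3 ± 2.94 CPM (log2 fold change 0.94, edgeR adjusted p = 0.00485), with no overlap between groups. Such a separation, with B3AR-Tg above, was seen in 0.201% of all tested genes. F2r (−0.74, adjusted p = 0.0221), the thrombin receptor, and Ednrb (−0.97, adjusted p = 0.0420) and S1pr1 (−0.69, adjusted p = 0.0429), which endothelial cells also express, fell. Adra1b passed in 25 of 25 alternatives, whereas library-total scaling left it as the only receptor called. Without WT replicate 4 it was again the only 1, and without WT replicates 1, 2 or 8, or B3AR-Tg replicates 2, 3, 5, 7 or 8, 2 receptors passed. The level of mouse Adrb3 itself was at the floor, with 0 to 4 counts in WT and 0 to 3 in B3AR-Tg libraries, so it does not check the labels.

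Of 14 effectors of G proteins, 12 were tested, 2 rose and 0 fell, beside 2.03% higher and 2.88% lower of all tested genes. The effectors that rose were Kcnj5, from 29.7 ± 8.63 to 48.8 ± 8.24 CPM (log2 fold change 0.72, edgeR adjusted p = 0.0108), and Kcnj3, from 50.4 ± 13.3 to 76.8 ± 13.5 CPM (0.61, adjusted p = 0.0215). They encode the subunits of the potassium channel that G beta-gamma opens after muscarinic receptor activation, the current that Rgs6 is known to limit. All 8 B3AR-Tg animals were above the WT median for each. Without B3AR-Tg replicate 5, Kcnj3 just missed the threshold (edgeR adjusted p = 0.0501), which left 1 effector.

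**Figure D4:**
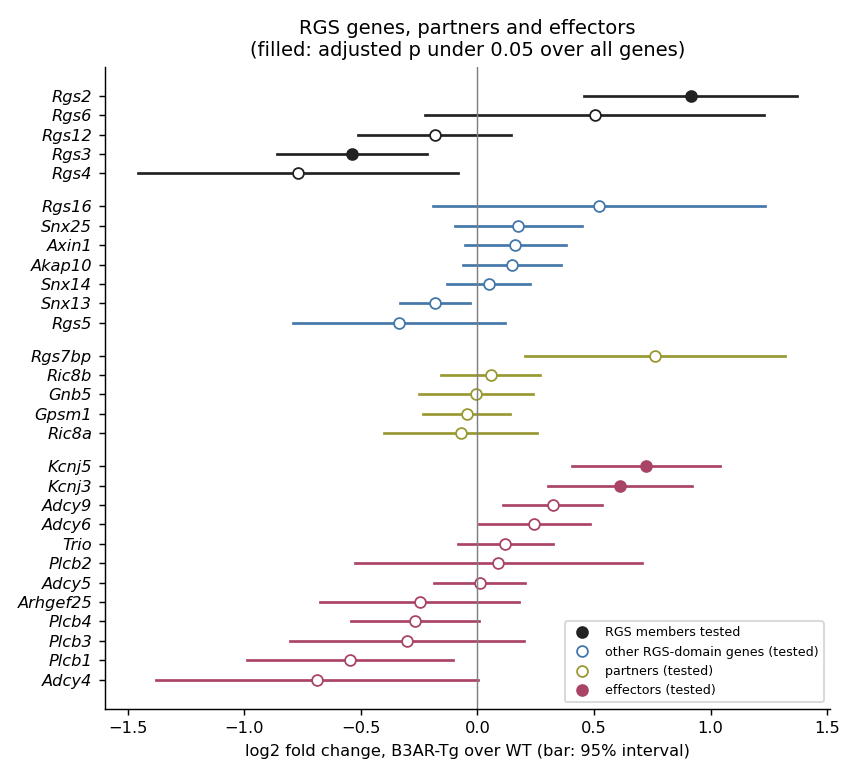
Log2 fold change of B3AR-Tg over WT with its 95% interval for the tested RGS members (black), other RGS-domain genes (blue), partners (olive) and effectors (red), 8 animals per genotype. Filled points pass an adjusted p of 0.05 over all genes, and these are Rgs2, Rgs3, Kcnj5 and Kcnj3.

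Markers of other cell types also differed between the groups. Fibroblast markers passed as lower for 4 of 7 tested (Col1a1, Col1a2, Dcn and Postn, of 8 listed), as did 2.88% of all tested genes. The summed level of the list was 40.7 to 163 CPM in WT and 11.1 to 59.0 in B3AR-Tg. All 7 tested markers had a negative log2 fold change and an edgeR unadjusted p under 0.05. Such a p was seen for 19.3% of all tested genes, in either direction. Endothelial markers passed as lower for 2 of 8 (Pecam1 and Emcn), with sums of 87.3 to 137 and 43.5 to 164 CPM. All 8 had a negative log2 fold change, 5 of them with an edgeR unadjusted p under 0.05. Pecam1 passed in 25 of 25 alternatives and Emcn in 12, and Emcn missed the threshold without WT replicates 2, 4, 5 or 8 or any B3AR-Tg replicate but 4 (edgeR adjusted p up to 0.0850), which left 1 endothelial marker. Mural markers passed for 0 of 5 tested of 7 (41.4 to 106 and 35.9 to 93.9 CPM), and leukocyte markers for 0 of 2 tested of 10 (4.27 to 14.8 and 0.795 to 6.54 CPM), of which Cd3e, Cd79a and S100a8 held no more than 3 counts in any library. Cardiomyocyte markers summed to between 39982 and 51580 CPM in WT and 46848 and 55467 CPM in B3AR-Tg, and Ryr2 of the 8 was higher. Ryr2 passed in 16 of 25 alternatives and missed the threshold without WT replicates 1, 2, 4 or 8 or B3AR-Tg replicates 1, 4, 5 or 8 (edgeR adjusted p up to 0.0830). Among the 9 alternatives that kept every library Ryr2 passed in 8, with adjusted p up to 0.129. Atrial markers passed for 0 of 4 tested of 5 (15.8 to 86.2 and 2.54 to 52.4 CPM). Log2 fold changes were negative for 4 of 5 mural, 2 of 2 leukocyte and 4 of 4 atrial markers tested. They were positive for 6 of 8 cardiomyocyte markers. Platelet markers summed to at most 0.850 CPM and nerve markers to at most 3.58 CPM in any library. The part of these cells, and of the load markers, in the differences of Rgs2 and Rgs3 was not tested, and in bulk RNA fewer cells of a type cannot be told apart from less RNA per cell.

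The genes most alike to the 2 changed members in their variation between animals were found after the genotype mean was taken from each animal. For Rgs2 over 16 animals these were Zfp85 (r = 0.85), Rbbp9 (r = 0.83) and Arl14ep (r = 0.81), whose own log2 fold changes were −0.27, −0.03 and 0.13 with adjusted p-values from 0.698 to 0.954. For Rgs3 they were Cdkl1 (r = 0.83), Zhx1 (r = 0.82) and Ccdc174 (r = 0.80), of which Zhx1 fell (log2 fold change −0.32, edgeR adjusted p = 0.0404). They were picked as the highest among all tested genes, so the r values describe these animals only.

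**Figure D5:**
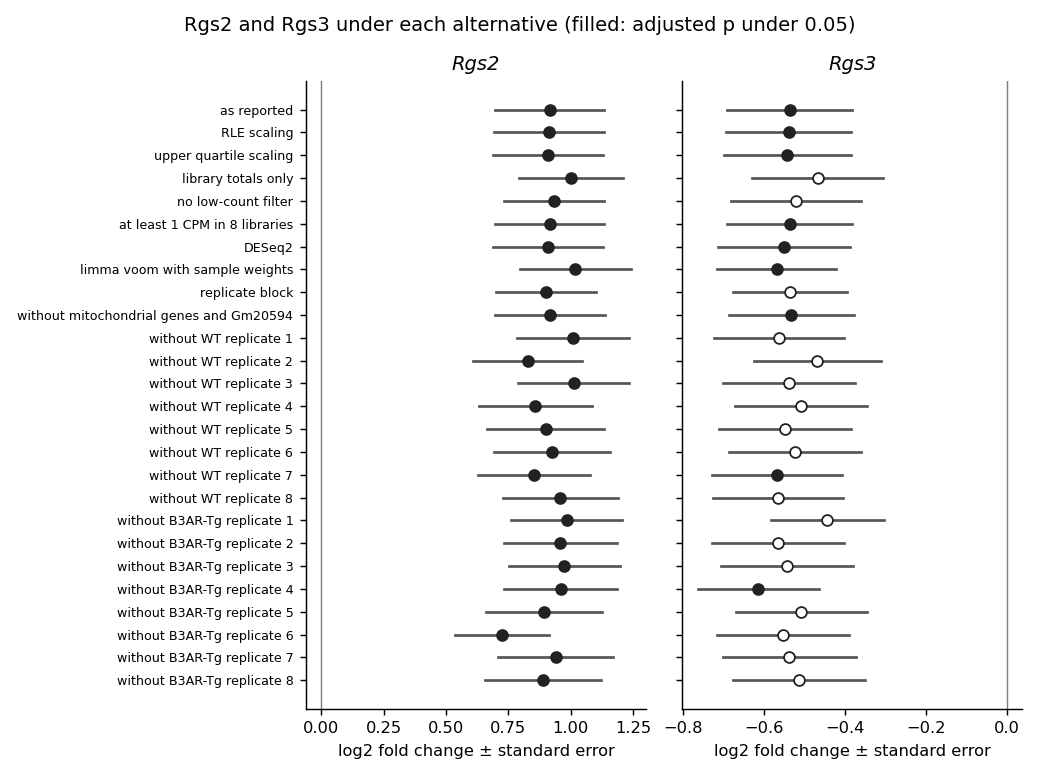
Log2 fold change ± standard error of Rgs2 (left) and Rgs3 (right), B3AR-Tg over WT, as reported and under 25 alternatives, with filled points for an adjusted p under 0.05. Rgs2 is filled throughout, between 0.73 and 1.02, and Rgs3 is filled in 8 of the 25 alternatives, between −0.61 and −0.44.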

How the data were processed

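Per the labels' protocols, hearts were perfused by the Langendorff method, the isolated myocytes were plated briefly, and ribosome-depleted stranded libraries were read from both ends. The authors deposited whole-number counts per gene, without normalization, in 16 columns that each matched 1 animal. The submitters' processing notes name Salmon and GRCm39. How its estimates became whole numbers, the annotation and the strand setting are not given in the sources used here. Totals ran from 5985335 to 14365864 counts per library, and mitochondrial genes and Gm20594 took 31.3% to 43.9% of them.

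Genes were tested with edgeR 4.0.16 (quasi-likelihood F test, R 4.3.3) on the counts, after filterByExpr (minimum count 10, total 15) and TMM scaling, with genotype alone in the model. Benjamini-Hochberg adjustment covered all 10945 tested genes, two-sided, threshold 0.05. CPM values are TMM-scaled, log2 CPM has a prior count of 2, and 3 counts is the floor. Alternatives used limma 3.58.1 and DESeq2 1.42.0, other scalings and filters, a replicate block, and removal of each library. Exact permutation used scipy 1.17.1. The tests were tested on simulated data first. The labels call the samples biological replicates. The members, lists and tests were chosen with earlier results of these data known. Named genes are the members, Adrb3, the load markers, tested other RGS genes and up to 4 genes per list past the threshold, plus the 3 most alike genes of each changed member. Outside that rule, Gnb5, Rgs7bp, Rgs1, Rgs22 and the listed genes at or under the floor were named after their values were seen. Lengths were matched by gene ID to GENCODE M21 on GRCm38, another build than that of the notes, so no gene coordinates are given beyond the RefSeq windows. Transgene sequence was not analysed here.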

Additional observations from a re-analysis of the deposited data

Results flagged for a closer look

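Within each genotype, the log2 CPM of the members and other named genes were searched for an extreme value set apart from the remaining 7 by more of the range than Dixon's 95% critical value for 8 animals allows. Such a value was found in 2 of 74 groups, where about 3.7 are due to chance. Rgs14 was high in WT replicate 7, with a gap of 1 of the range, which rests on a single count where the other 7 WT libraries held 0. Col1a1, a fibroblast marker, was low in WT replicate 6, with a gap of 0.527 of the range, at 0.294 CPM (2 counts) where the remaining WT range was 1.96 to 7.90 CPM. No tested member had such a value, although the low Rgs6 values of 3 WT animals lie apart as a set.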

How the results depend on the processing

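Rgs2 kept its direction and passed in 25 of 25 alternatives (log2 fold change 0.73 to 1.02, adjusted p 0.00213 to 0.0497). Rgs3 kept its direction in all 25 and passed in 8, with −0.47 under library-total scaling, −0.52 without a low-count filter, −0.54 with the replicate block (adjusted p = 0.0663) and −0.61 to −0.44 with a library left out. The members called were thus 1 under each of these 3 settings and 1 to 2 with a library left out. The Emcn call held in 12 and the Ryr2 call in 16 of 25. Rgs4, Rgs6 and Rgs12 passed in 0 of 25 and kept their signs. Over all genes 230 passed with the replicate block, and 272 to 675 with a library left out (272 without WT replicate 4, 277 without B3AR-Tg replicate 5, 345 without B3AR-Tg replicate 8). DESeq2 called 804. Library-total scaling, which shifted the median log2 fold change to 0.08, changed the split from 222 higher and 315 lower to 346 and 165. The receptors called were 1 under library-total scaling and 1 with the block, the effectors 1 with the block, and the partners 1 under limma voom. With a library left out, receptors ran from 1 to 4, effectors from 1 to 3 and load markers from 3 (without B3AR-Tg replicate 5) to 6. Gnb5 turned positive under library-total scaling (0.0679), without a filter (0.0116) and in 7 removals of a library (range −0.0656 to 0.0534), never near the threshold. The other 27 named genes kept their signs. No pairing of the animals by replicate number was seen, though a pairing with small effects would not show in these values. Same-numbered libraries correlated at −0.219 to 0.0935, 0 of 8 pairs over 0.1, and 0 of 8 WT libraries correlated best with their own number. The cause of each lost call was not tested. Correlations kept their side of the threshold under a prior count of 0.5 and library totals in 60 of 60 cases. Rgs7, Rgs10, Rgs14 and Rgs19 had 24 counts or fewer in every library, which limits what can be detected for them.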

Other observations

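Rgs1, an R4 gene of lymphocytes and other leukocytes that was below the low-count filter, held 10, 2, 2, 16, 0, 2, 5 and 19 counts in WT replicates 1 to 8 and 1, 0, 1, 7, 0, 1, 5 and 2 counts in B3AR-Tg replicates 1 to 8. Its highest values were in WT replicates 1, 4 and 8. Rgs22 held 12 counts in B3AR-Tg replicate 8 and 4 to 7 in the other B3AR-Tg libraries, while WT libraries held 0 to 5. Fitted without a low-count filter, neither passed over all genes. The log2 fold change was −1.77 for Rgs1 (edgeR adjusted p = 0.231) and 1.26 for Rgs22 (edgeR adjusted p = 0.287). Both genes were singled out after their values were seen.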
